A study of Mus musculus with 6 samples.

Results

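Cassette microexons, the alternative exons of 3 to 27 bases, were followed in hippocampus RNA of mice that lack Prmt9 and of their controls. An exon counted as a microexon when it was internal to an annotated transcript and another annotated transcript joined its flanking splice sites directly. The annotation held 697 such events, out of 17321 cassette events of any length, and they covered 663 exons of 529 genes. Of these, 458 events (446 exons, 368 genes) were expressed and alternative enough to be compared between genotypes, as 7978 events of all lengths were. Hippocampi were taken at 2 weeks of age from 3 WT and 3 Prmt9 KO females of the B6J strain, and polyadenylated RNA was sequenced with stranded libraries. The KO was whole-body: Cre recombinase under the CMV promoter had deleted a floxed Prmt9 exon in the germline, and the WT mice were littermates of the same sex. Hippocampal tissue holds many cell types, so that a change of inclusion within a cell type and a change of cell mixture cannot be told apart in these values.

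Microexons are used mainly in neurons. The splicing factors Srrm4 and Srrm3 promote their inclusion, Rbfox and Nova proteins act on some of them, and Ptbp1 represses many neuronal exons. Because they are so short, they add only a few residues to a protein, often at a surface where it meets a partner, and many of their host genes act at synapses, in vesicle traffic or in the cytoskeleton. PRMT9 methylates an arginine of SF3B2, a subunit of the U2 snRNP, the particle that recognises the branch point before the 3' splice site, and the comparison therefore asks whether exons that offer the spliceosome very little sequence were included differently without it.

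Inclusion is given as PSI, the TPM of the transcripts that hold the exon divided by the TPM of those plus the transcripts that skip it, on a scale from 0 to 1. It rests on kallisto's division of reads among annotated transcripts, not on reads that cross the microexon's junctions. Of the 239 events that were not compared, 110 had under 1 TPM of including plus skipping transcripts in at least 1 mouse, 56 had a mean PSI above 0.95 in both genotypes and 73 had one below 0.05 in both. In the tested events the median of the lowest mouse was 16.3 TPM. A single including transcript carried the numerator in 247 of the 458 tested events. In 189 events (41.3%) an including and a skipping transcript had the same introns apart from those at the microexon. PSI sums all transcripts of an event. Differences elsewhere in the transcripts could therefore move it in the other events, and also in these 189 where further transcripts contributed. In 5 genes, 10 exons shared their full transcript sets with another microexon of the same gene, and their PSI values were not separate measurements.

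The sequences below show how short these exons are, with the exon in capitals between 20 bases of the spliced mRNA on each side, all read from the annotated transcripts (GRCm38). Asxl1 encodes a chromatin regulator, Clasp2 a microtubule plus-end protein, Apbb1 an adaptor that binds the amyloid precursor protein, Snap91 a clathrin adaptor, Dnm1 the neuronal dynamin and Ptprs a receptor tyrosine phosphatase.
Asxl1, chr2:153354650-153354652, plus strand: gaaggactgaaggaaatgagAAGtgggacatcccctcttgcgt
Clasp2, chr9:113887045-113887047, plus strand: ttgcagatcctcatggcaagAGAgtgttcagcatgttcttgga
Apbb1, chr7:105565946-105565951, minus strand: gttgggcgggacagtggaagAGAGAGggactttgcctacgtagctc
Snap91, chr9:86809651-86809656, minus strand: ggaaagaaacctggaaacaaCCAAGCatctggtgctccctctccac
Dnm1, chr2:32323179-32323190, minus strand: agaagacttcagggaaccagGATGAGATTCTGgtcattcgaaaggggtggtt
Ptprs, chr17:56421833-56421844, minus strand: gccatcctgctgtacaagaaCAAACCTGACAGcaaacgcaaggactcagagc

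By PSI from annotated transcripts, exons of a single codon's length were alternative in hippocampus. The exon of Asxl1 had PSI values of 0.843, 0.816 and 0.854 in WT1, WT2 and WT3 and of 0.886, 0.870 and 0.857 in KO1, KO2 and KO3. Inclusion of the 3 bases of Clasp2 was far lower, at 0.069, 0.236 and 0.242 in WT and 0.109, 0.246 and 0.215 in KO. In Clasp2 the mice numbered 1 lay below the other 4 in both genotypes, a split that recurred in many microexons and is described further on. In all, 6 exons of 3 bases were tested, the others being in Cyth2, Mon2, Rsph10b and Tbc1d4. The 6-base exon of Ap2m1, the medium subunit of the AP-2 clathrin adaptor, was the deepest of the exons of up to 6 bases, with a mean of 815 TPM, and its PSI ran only from 0.423 to 0.484 over the 6 mice. These exons lie outside the rule for named exons and were chosen after their values were seen.

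Length followed the reading frame. Of the 663 microexons, 537 (81.0%) were a multiple of 3 bases long, against 45.4% of the 15679 longer cassette exons. Among the 443 microexons whose best expressed pair of flanking sites was tested, the share was 388 (87.6%), and it was 96.4% in exons of 3 to 9 bases, 90.7% in those of 10 to 15, 88.3% in those of 16 to 21 and 82.4% in those of 22 to 27. Longer cassette exons of 28 to 50 bases stood at 58.1% and those above 200 bases at 45.8%. No exon of 4, 5 or 7 bases was annotated, whereas 29 had 6 bases, 93 had 24 and 105 had 27. Multiples of 3 also stood out just past the limit of 27 bases, with 21, 14 and 78 annotated exons of 28, 29 and 30 bases. The 77 tested exons of 27 bases had a median WT PSI of 0.509, the 8 exons of 28 bases one of 0.190 and the 40 exons of 30 bases one of 0.423.

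**Figure D1:**
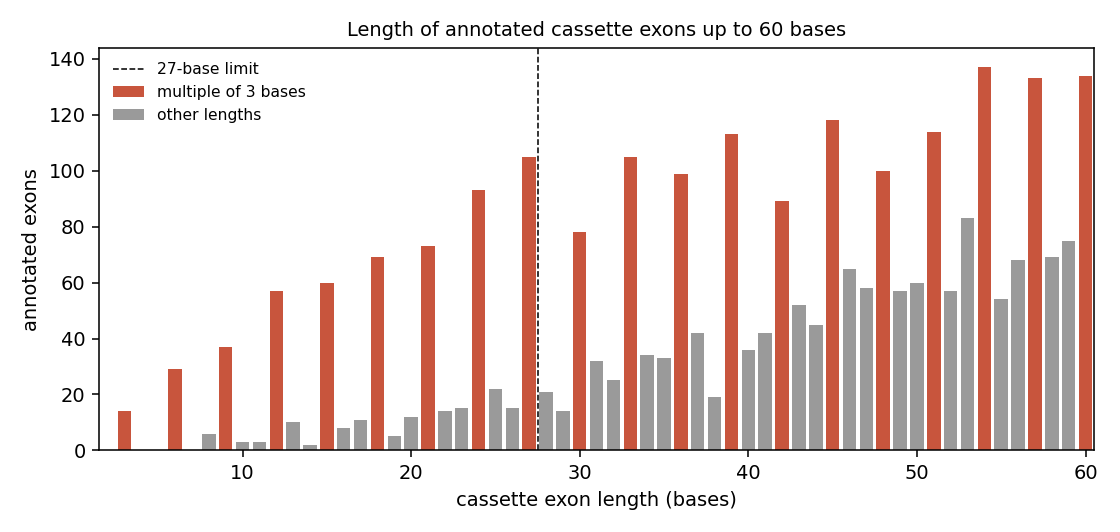
Annotated cassette exons (y axis, number of exons) by exon length in bases (x axis), with multiples of 3 in red, other lengths in grey and the 27-base limit dashed. Lengths that are multiples of 3 stand above their neighbours at every step, with 105 exons of 27 bases and 15 of 26.

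Coding sequence of at least 1 including transcript overlapped 94.4% of the 443 tested microexons and 78.3% of the 7163 tested longer exons. Of the 360 microexons that were wholly coding and a multiple of 3, 146 (40.6%) began at a codon border, 127 (35.3%) after the first base of a codon and 87 (24.2%) after the second. The best expressed including transcript was annotated as protein-coding for 362 of the 388 multiples of 3 (93.3%). For the 55 exons of other lengths it was protein-coding in 36 (65.5%) and a target of nonsense-mediated decay in 15. Purines made up 57.2% of the microexon bases, with 30.3% A and 26.9% G. The median intron before a microexon was 1584 bases and the one after it 1467, against 1790 and 1751 for longer cassette exons.

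Inclusion was intermediate more often in microexons than in the background, which was not matched for expression. Median totals were 24.8 TPM for the tested microexons and 16.1 TPM for the tested longer exons. Of the 458 tested events, 280 (61.1%) had a mean WT PSI from 0.2 to 0.8, 84 (18.3%) were below and 94 (20.5%) above, whereas 46.8% of all 7978 events lay between these bounds, 24.0% below and 29.3% above. The median PSI of the tested microexons was 0.504, 0.511 and 0.524 in WT1, WT2 and WT3 and 0.522, 0.507 and 0.514 in KO1, KO2 and KO3. Neither genotype was shifted as a whole, since the KO medians lay within the WT range. Among the most included were exons of Snap91, Cd302, a lectin receptor, and Nrg1, the neuregulin ligand, and among the least included those of Dlg1, a synaptic scaffold, and Kcnt2, a sodium-activated potassium channel. For Dlg1 the 21-base exon had PSI values of 0.015, 0.049 and 0.047 in WT and 0.062, 0.051 and 0.046 in KO.

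Microexons of equal length were compared between genes. Base by base, 403 of the tested microexons, each of at least 9 bases, were compared with each other, and of 7971 pairs that were of equal length, 15 bases or longer and in different genes, 15 were identical at 75% or more of their positions. Another 10 pairs of 9 or 12 bases passed the same limit, and these also joined unrelated genes, such as Ano1 and Kdm1a. All 15 of the longer pairs joined paralogs, in 13 groups that held 27 exons, a set chosen after values were seen. In the lines that follow, the capitals mark the positions at which the exons of a group differ.
Cpeb2, chr5:43268869-43268892: cAaggaGTtatgggcgAagACgag
Cpeb3, chr19:37105791-37105814: cCaggaGCtatgggcgGagACgag
Cpeb4, chr11:31918801-31918824: cAaggaCTtatgggcgAagGAgag
Ptprd, chr4:76138556-76138573: gtggtAcaccaatAagag
Ptprf, chr4:118252076-118252093: gtggtTcaccaatCagag
Dst, chr1:34296742-34296759: ttcttcctGggAaatcag
Macf1, chr4:123364057-123364074: ttcttcctCggCaatcag
Mink1, chr11:70609408-70609431: agctataagCGagcAatTgGCgag
Tnik, chr3:28625199-28625222: agctataagAAagcTatAgATgag
Tenm3, chr8:48313238-48313264: ctcactatTtggataAgAtagttaaag
Tenm4, chr7:96805105-96805131: ctcactatCtggataGgGtagttaaag

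In 9 of the 15 pairs the ranges of PSI over the 6 mice did not overlap between the paralogs. The kinases Mink1 and Tnik, both of the germinal centre kinase family, differed widely, from 0.818 to 0.889 for Mink1 and from 0.302 to 0.448 for Tnik. The phosphatase receptors Ptprd and Ptprf were also apart, with 0.572 to 0.933 for the 18-base exon of Ptprd and 0.153 to 0.351 for that of Ptprf. Of the translation initiation factors, Eif4g1 ran from 0.563 to 0.647 and Eif4g3 from 0.927 to 0.972. By contrast the 27-base exons of the adhesion proteins Tenm3 and Tenm4 spanned 0.805 to 0.931 and 0.830 to 0.915, so that this pair overlapped. The adhesion G protein-coupled receptors Adgrl1 and Adgrl3 lay furthest apart of the 15 pairs in WT, at mean PSI 0.096 and 0.762 for 15-base exons that agree at 13 positions. In all 3 Cpeb genes, which encode RNA-binding regulators of translation, the 24-base exon was intermediate, with WT means of 0.543 in Cpeb2, 0.740 in Cpeb3 and 0.633 in Cpeb4. For Cpeb2 the values were 0.621, 0.557 and 0.452 in WT and 0.46, 0.410 and 0.438 in KO, and WT3 lay among the KO mice.

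**Figure D2:**
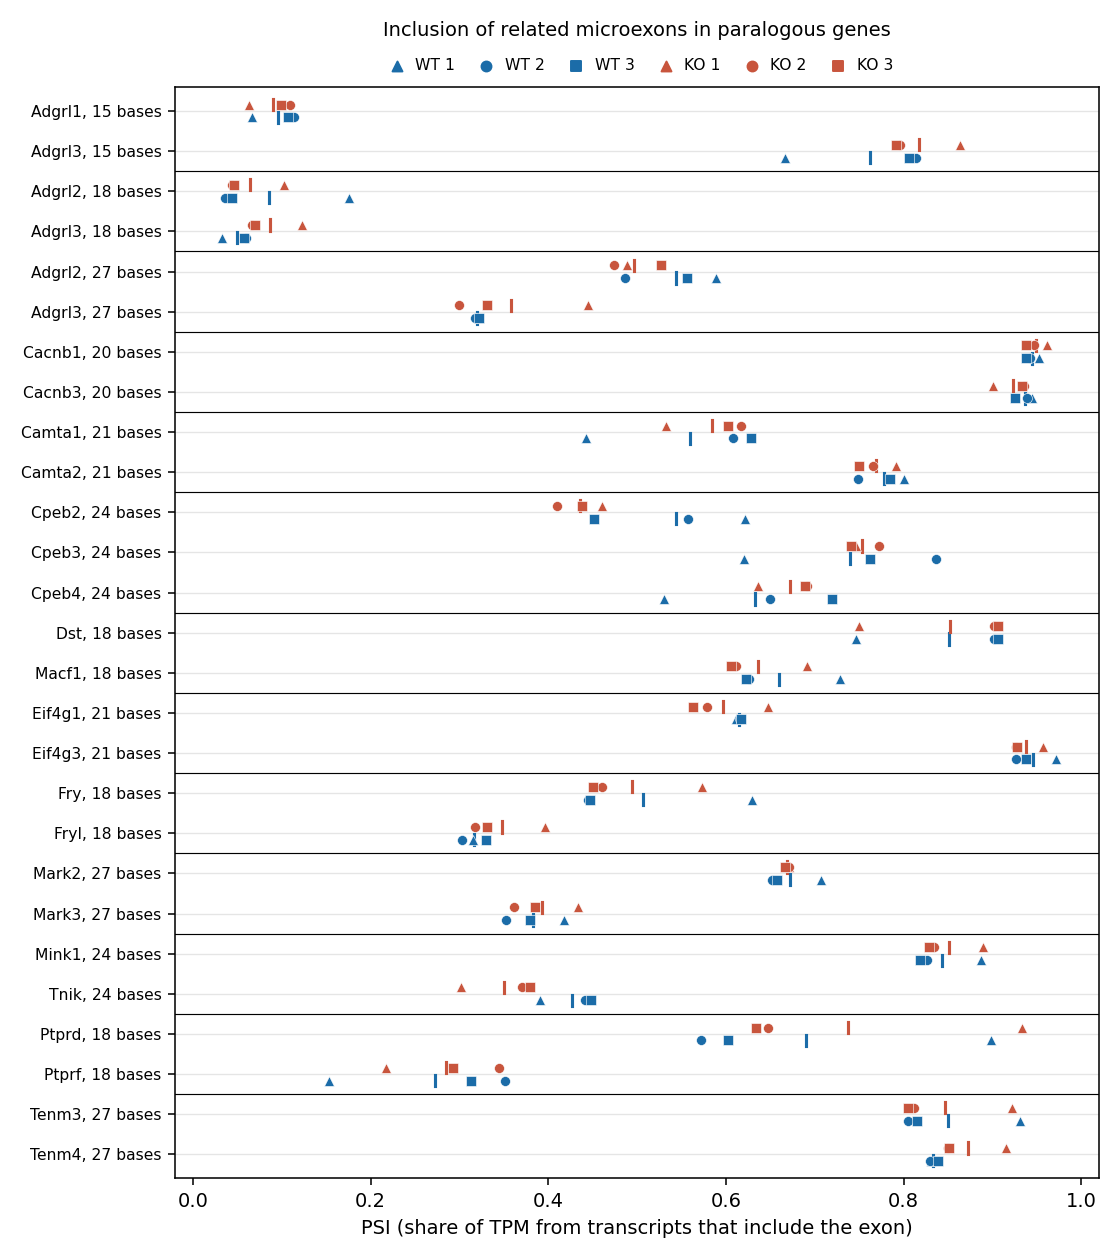
PSI (x axis, 0 to 1) of 27 related microexons in 13 groups of paralogs (y axis, groups split by lines), with 1 point per mouse (blue WT above, red KO below, triangle, circle and square for mice 1, 2 and 3) and a bar at the mean of each genotype. Paralogs such as Mink1 and Tnik stand apart, while WT and KO of the same exon lie close together for most exons. The widest gap between genotype means is that of Cpeb2 (0.543 in WT, 0.436 in KO). In 3 exons the genotypes do not overlap, beside 11.5% of all events. Triangles often lie away from the circles and squares.

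No microexon passed the test between genotypes. In limma's test of the log2 ratio of including to skipping TPM, with Benjamini-Hochberg adjustment over all 7978 events, 0 of 458 microexon events reached an adjusted p of 0.01 or less together with a PSI difference of at least 0.05, and 0 of all events (0%). The smallest adjusted p of a microexon was 0.994. At an unadjusted p below 0.05 and the same difference, 7 microexon events (1.53%) passed, where 170 of all events (2.13%) did, so that the share of microexons was not above the background. Of these, 3 were higher and 4 lower in KO, beside 0.877% and 1.25% of all events. With the replicate number as a block, 13 microexon events (2.84%) and 239 of all events (3%) passed that threshold, and none was called. Without the mice numbered 1, 21 microexon events (4.45%) and 483 of all (5.72%) passed, again with none called.

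The WT and KO mice did not overlap in 43 microexon events (9.39%), against 11.5% of all events. KO was higher in 23 of them and lower in 20, beside 5.34% and 6.13% of all events. The median PSI difference, KO minus WT, was −0.0013 over the tested microexons and −0.0003 over all events, and the median of its absolute value was 0.0194 and 0.0227. A difference of at least 0.05 in either direction was found in 78 microexon events (17.0%) and in 1636 of all events (20.5%). Within the 189 events with a same-intron pair of transcripts, 21 (11.1%) did not overlap. Where the exon was a multiple of 3 bases, 37 of 388 microexons did not overlap, and 5 of 55 where it was not.

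**Figure D3:**
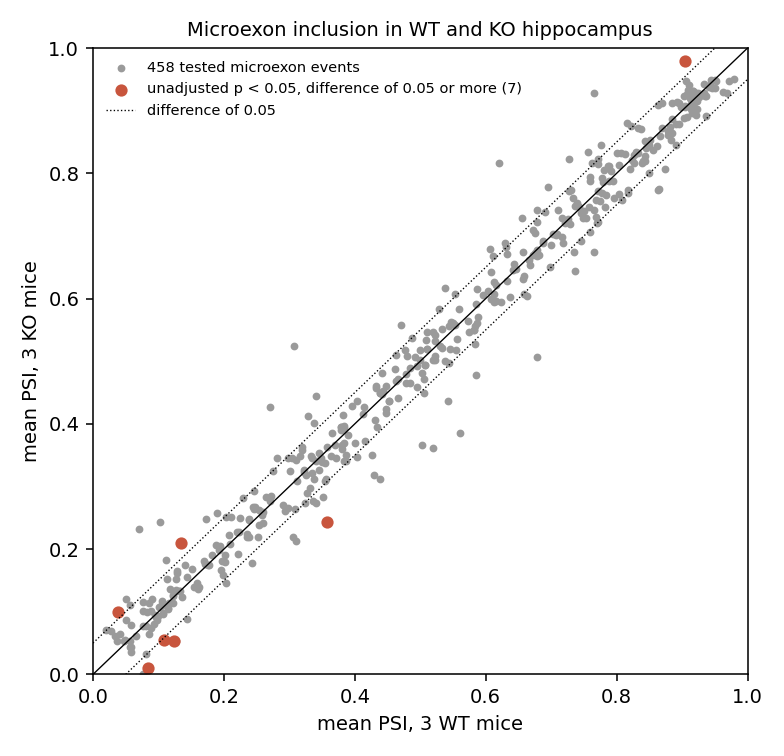
Mean PSI of the 3 KO mice (y axis) against the mean of the 3 WT mice (x axis) for the 458 tested microexon events, with equality as a solid line, differences of 0.05 as dotted lines and the 7 events that passed an unadjusted p of 0.05 and a difference of 0.05 in red. Most points lie near the diagonal over the whole range, and 78 differ by 0.05 or more.

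Mice WT1 and KO1 stood apart from the other 4 in these libraries. The first principal component of gene expression (67.4% of the variance) placed WT1 at −110.34 and KO1 at −30.61, and the others between 31.49 and 37.79. Transcripts with no count made up 37.4% in WT1 and 22.8% to 24.8% in the other mice. Summed markers of excitatory neurons were 1812 TPM in WT1 and 1916 TPM in KO1 against 2934 to 3117 TPM in the rest. Of these markers only Neurod6 was not lower in both mice than in the rest, with 123 and 148 TPM against 114 to 132 TPM. Summed oligodendrocyte lineage markers were 1888 and 997 against 7108 to 10208 TPM, and all but Pdgfra were lower in both mice. Summed choroid plexus and ependymal markers reached 7251 TPM in WT1 alone, against 615 to 3331 TPM in the other 5 mice. Ttr gave 7157 TPM of the WT1 sum, and Folr1 was also highest in WT1, whereas Kl, Foxj1 and Prlr were not. All 8 excitatory and all 6 oligodendrocyte markers were tested and none of them was called between genotypes. The part of cell mixture and of RNA quality in the microexon values was not tested.

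The same pair of mice set much of the spread of microexon inclusion. WT1 was the highest or lowest of the 6 mice in 301 of the 458 tested events (65.7%), and KO1 in 188 (41.0%), while the others were extreme in 95 to 115. Over all 7978 events WT1 was extreme in 67.3% and KO1 in 36.7%, so that this spread was not particular to microexons. In 241 events (52.6%) WT1 and KO1 lay together on the same side of the other 4 mice, above them in 134 (29.3%) and below in 107 (23.4%). Over all 7978 events these shares were 46.2%, 22.2% and 24.0%. The 18-base exon of Kif1b, a kinesin that moves synaptic vesicle precursors and mitochondria, had a PSI of 0.973 in WT1 and in KO1 and of 0.861 to 0.872 in the rest. In Ptprd the 18-base exon had 0.898 in WT1 and 0.933 in KO1, against 0.572 to 0.647 in the other mice. The 24-base exon of Ank3, which encodes the scaffold ankyrin-G, went the other way, with 0.122 and 0.116 against 0.270 to 0.300.

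Of the 5 host lists, the genes of adhesion and of receptor phosphatases held the most tested microexons for their number. From a list of 27 such genes, 19 had an annotated microexon, and 35 of their exons were tested, with a median PSI of 0.663 in WT and 0.604 in KO. The median of the PSI difference, taken exon by exon, was −0.0034, beside −0.0003 over all events. In 5 exons the genotypes did not overlap, beside 11.5% of all events, and none had an unadjusted p below 0.05. They were the 18-base exon of Adgrl3, the 27-base exons of Nrxn2 and Tenm4, and the 12-base and 9-base exons of Ptprd. The 9-base exon of Ptprd (chr4:76139294-76139302) had 0.671, 0.655 and 0.664 in WT and 0.567, 0.603 and 0.644 in KO. The 12-base exon (chr4:76054589-76054600) had 0.102, 0.143 and 0.142 in WT and 0.159, 0.173 and 0.155 in KO. In Ptprs the 12-base exon, which matches that of Ptprd at 11 bases, had 0.850, 0.872 and 0.886 in WT and 0.868, 0.877 and 0.875 in KO, so that genotypes lay together far above the level in Ptprd.

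Ptprd carried 5 tested microexons, more than any other gene. Its second 12-base exon (chr4:76135545-76135556) was included at 0.887, 0.683 and 0.711 in WT and 0.908, 0.740 and 0.713 in KO, and its 27-base exon (chr4:76095520-76095546) at 0.891, 0.719 and 0.712 in WT and 0.836, 0.718 and 0.715 in KO. In both, WT1 and KO1 were the highest of the 6 mice and the genotypes overlapped. Macf1, a linker of actin and microtubules, carried 4, of which the 9-base exon (chr4:123386549-123386557) had 0.235, 0.260 and 0.261 in WT and 0.202, 0.209 and 0.250 in KO. These exons were chosen after their values were seen. The adhesion molecules Nrcam and Nfasc belong to the L1 family and act at nodes and the axon initial segment. Nrcam had a 12-base exon at 0.179, 0.149 and 0.137 in WT and 0.135, 0.145 and 0.136 in KO, and an 18-base exon at 0.448, 0.444 and 0.450 in WT and 0.446, 0.416 and 0.411 in KO. In both the KO values reached into the WT range. The 18-base exon of Nfasc had 0.784, 0.665 and 0.685 in WT and 0.836, 0.7 and 0.685 in KO, and WT1 and KO1 were the highest of the 6 mice.

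**Figure D4:**
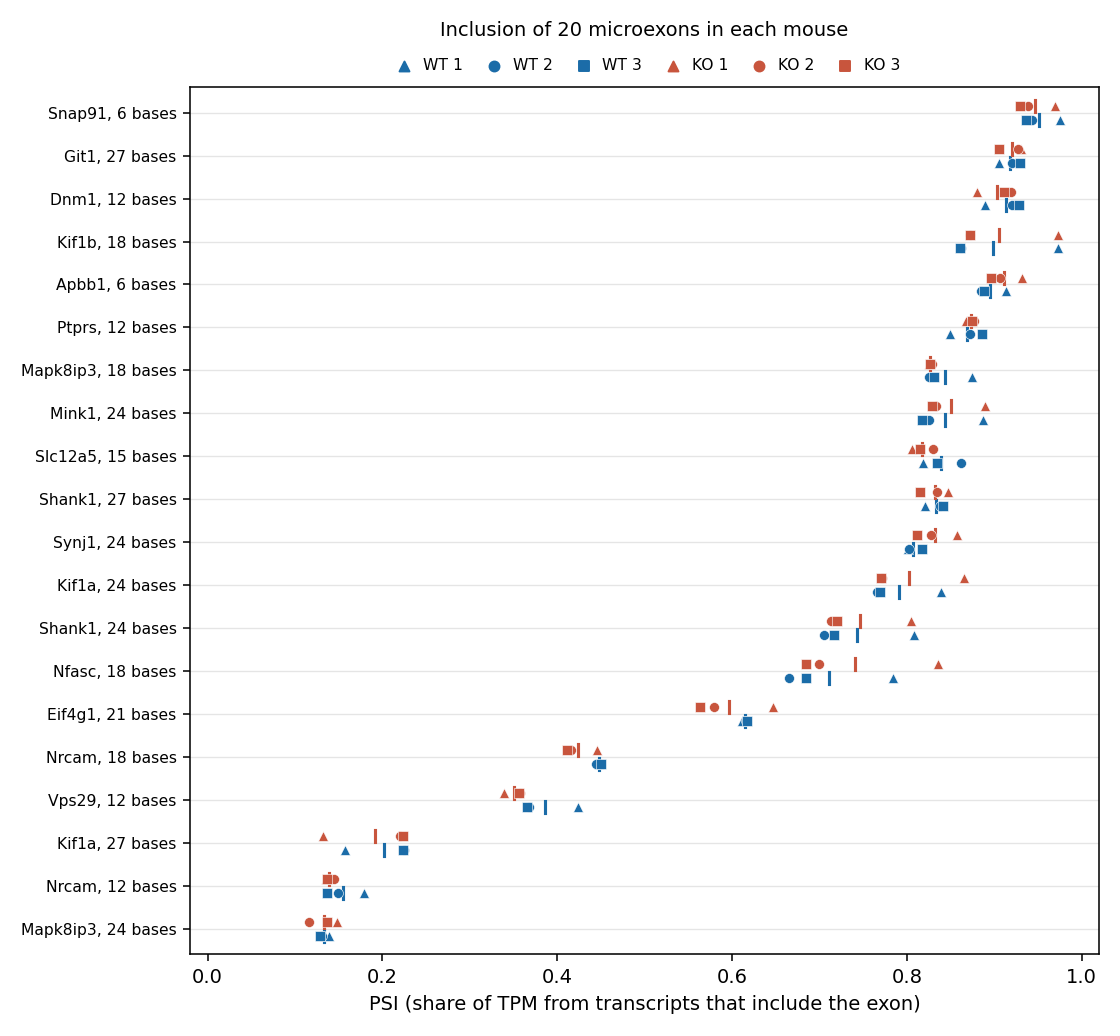
PSI (x axis, 0 to 1) of the 20 most expressed microexons from the host gene lists (y axis, gene and exon length), with 1 point per mouse (blue WT above, red KO below, triangle, circle and square for mice 1, 2 and 3) and a bar at the mean of each genotype. Genotype means lie close together for every exon, and Vps29 alone has no overlap between WT and KO.

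Of 37 genes of the vesicle cycle and endocytosis, 17 had a microexon and 17 exons were tested, at a median PSI of 0.530 in WT and 0.524 in KO and a median PSI difference of 0.0046. In 1 of the 17 the genotypes did not overlap, beside 11.5% of all events, namely that of Vps29, a subunit of the retromer, which returns cargo from endosomes. Its 12 bases (chr5:122356794-122356805) were included at 0.424, 0.368 and 0.365 in WT and 0.339, 0.357 and 0.356 in KO, a PSI difference of −0.035. The exon of Dnm1 shown above had 0.890, 0.921 and 0.929 in WT and 0.880, 0.919 and 0.911 in KO at a mean of 541 TPM, the deepest of the named exons. For Snap91 the values were 0.975, 0.943 and 0.936 in WT and 0.970, 0.939 and 0.930 in KO. Synj1, the phosphatase that strips clathrin coats, had 0.801, 0.803 and 0.817 in WT and 0.858, 0.828 and 0.812 in KO for its 24-base exon. In these exons the spread within a genotype was as wide as the gap between genotypes.

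Kinases, GTPase regulators and cytoskeletal proteins formed the largest list, with 56 genes, 40 of them with a microexon, and 56 tested exons at a median PSI of 0.554 in WT and 0.541 in KO and a median PSI difference of −0.0079. The genotypes did not overlap in 4 of the 56, beside 11.5% of all events, namely the exons of Tnik, Cask, Clasp1 (24 bases) and Kif21a (21 bases). Kif1a, the axonal kinesin of dense core vesicles, joined the same flanking exons with either of 2 microexons, of 24 and of 27 bases.
Kif1a, chr1:93026832-93026855, minus strand: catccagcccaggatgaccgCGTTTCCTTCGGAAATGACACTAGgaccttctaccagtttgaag
Kif1a, chr1:93034546-93034572, minus strand: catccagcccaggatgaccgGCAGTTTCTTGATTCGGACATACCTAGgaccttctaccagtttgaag
The 24-base exon had 0.839, 0.766 and 0.769 in WT and 0.865, 0.772 and 0.770 in KO, and the 27-base exon of the pair lay between 0.126 and 0.142 in all 6 mice. Another exon of Kif1a, also of 27 bases (chr1:93065552-93065578), had 0.157, 0.225 and 0.224 in WT and 0.132, 0.220 and 0.223 in KO. In both exons that varied, WT1 and KO1 lay away from the rest, and the genotypes overlapped.

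The genotypes also overlapped in the following hosts of that list. Apbb1 had 0.914, 0.885 and 0.888 in WT and 0.932, 0.907 and 0.896 in KO for its 6 bases. Shank1, a scaffold of the postsynaptic density, had a 24-base exon at 0.808, 0.705 and 0.717 in WT and 0.805, 0.713 and 0.720 in KO, and a 27-base exon at 0.821 to 0.841 in WT and 0.815 to 0.847 in KO. Mapk8ip3, which links kinesin to the JNK pathway, had an 18-base exon at 0.826 to 0.875 in WT and 0.825 to 0.829 in KO, and a 24-base exon at 0.129 to 0.139 in WT and 0.116 to 0.148 in KO. The 27-base exon of Git1, a GTPase-activating protein of ARF, had 0.906 to 0.930 in WT and 0.905 to 0.931 in KO. The neuronal 18-base exon of Src, which lies outside the naming rule, had 0.721, 0.787 and 0.785 in WT and 0.675, 0.771 and 0.778 in KO.

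Ion channels and transporters gave 10 tested exons from 28 listed genes, at a median PSI of 0.407 in WT and 0.406 in KO and a median PSI difference of −0.0068, and in all 10 the genotypes overlapped. Slc12a5, the neuronal potassium-chloride cotransporter KCC2, had 0.819, 0.862 and 0.835 in WT and 0.806, 0.830 and 0.815 in KO for its 15-base exon. Genes of transcription, chromatin and RNA gave 11 exons from 35 listed genes, at a median PSI of 0.615 in WT and 0.596 in KO and a median PSI difference of 0.0049. In 1 of the 11, that of Zmynd8, a chromatin reader, the genotypes did not overlap, and by a margin lost in rounding, with 0.328, 0.332 and 0.338 in WT and 0.338, 0.357 and 0.352 in KO. The 24-base exon of the transcription factor Mef2c had 0.888, 0.864 and 0.850 in WT and 0.887, 0.843 and 0.851 in KO. For Kdm1a, the histone demethylase LSD1, whose neuronal form carries a 12-base exon, the values were 0.262, 0.242 and 0.227 in WT and 0.279, 0.268 and 0.259 in KO. Over the 5 lists, 0 exons had both an unadjusted p below 0.05 and a difference of at least 0.05.

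The 10 microexons with the smallest unadjusted p were in Porcn, Tbc1d4, Stim2, Tnnt2, Slit2, Plch1, Cdk5rap2, Adam22, Dync1i2 and Tnik. They were picked for that p, which ran from 0.00195 to 0.0576, and each had an adjusted p of 0.994, so that their differences are given as a description. Sequences of the best expressed of them are shown with the exon in capitals.
Porcn, chrX:8201658-8201672, minus strand: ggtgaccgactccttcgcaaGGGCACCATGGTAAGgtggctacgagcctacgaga
Stim2, chr5:54110116-54110139, plus strand: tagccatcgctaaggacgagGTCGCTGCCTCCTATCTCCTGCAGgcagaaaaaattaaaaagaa
Slit2, chr5:48220967-48220990, plus strand: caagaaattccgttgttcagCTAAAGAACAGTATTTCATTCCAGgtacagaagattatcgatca
Adam22, chr5:8107002-8107019, minus strand: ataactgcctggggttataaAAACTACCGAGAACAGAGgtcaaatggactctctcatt
Dync1i2, chr2:71227827-71227844, plus strand: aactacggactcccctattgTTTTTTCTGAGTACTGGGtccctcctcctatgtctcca
Tnik, chr3:28625199-28625222, plus strand: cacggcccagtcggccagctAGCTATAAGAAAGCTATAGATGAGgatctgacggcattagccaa

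Porcn encodes the acyltransferase that lipidates Wnt ligands before secretion. Its 15-base exon was measured between 2 annotated pairs of flanking exons. With the pair shown above, it was included at 0.037, 0.040 and 0.038 in WT and 0.127, 0.083 and 0.087 in KO, a PSI difference of 0.061 at a mean of 15.2 TPM. Every KO mouse lay above every WT mouse (exact two-sided permutation test, p = 0.1, the smallest that 3 mice against 3 allow). The change of the log2 ratio was 1.29 with a standard error of 0.25. With the better expressed pair, at a mean of 58.2 TPM, the same exon had 0.906, 0.917 and 0.934 in WT and 0.893, 0.929 and 0.913 in KO, a PSI difference of −0.007, and the genotypes overlapped. The expression of the gene as a whole changed by −0.05 on the log2 scale.

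Stim2 encodes a calcium sensor of the endoplasmic reticulum that opens store-operated channels. The 24-base exon of Stim2 had 0.134, 0.093 and 0.098 in WT and 0.059, 0.045 and 0.060 in KO, a difference of −0.054 without overlap. Slit2, a secreted axon guidance ligand of Robo receptors, had 0.371, 0.387 and 0.312 in WT and 0.214, 0.266 and 0.249 in KO, the widest gap of the 10 at −0.114, also without overlap. For Dync1i2, an intermediate chain of dynein, the values were 0.412, 0.385 and 0.415 in WT and 0.326, 0.378 and 0.339 in KO at a mean of 120 TPM. In Tnik, a kinase of the postsynaptic density, the 24-base exon had 0.391, 0.441 and 0.448 in WT and 0.302, 0.370 and 0.379 in KO. Total Tnik expression was 44.2, 86.0 and 87.2 TPM in WT and 98.4, 144 and 140 TPM in KO, so that every KO mouse lay above every WT mouse in the level of the gene as well. On the gene counts, the log2 fold change of edgeR was 0.47 ± 0.20 (SE) and was not called. Mink1, its paralog, had 0.887, 0.826 and 0.818 in WT and 0.889, 0.834 and 0.829 in KO for the related exon.

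Adam22, a synaptic receptor of the Lgi proteins, had 0.895, 0.870 and 0.844 in WT and 0.924, 0.912 and 0.900 in KO, a difference of 0.043 that stayed under the limit of 0.05. The same Adam22 exon was also tested between another annotated pair of flanking exons, whose values are not given here. Cdk5rap2, a centrosomal protein, had 0.120, 0.135 and 0.148 in WT and 0.219, 0.182 and 0.230 in KO for 27 bases. The exons of Tbc1d4, Plch1 and Tnnt2 rested on low expression, with mean totals of 3.01, 2.10 and 3.43 TPM. In Tnnt2, the cardiac troponin T gene, WT1 at 0.943 lay above KO3 at 0.938. The other 9 of the 10 exons did not overlap between genotypes, as 11.5% of all events did, and the choice by p favours such exons.

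**Figure D5:**
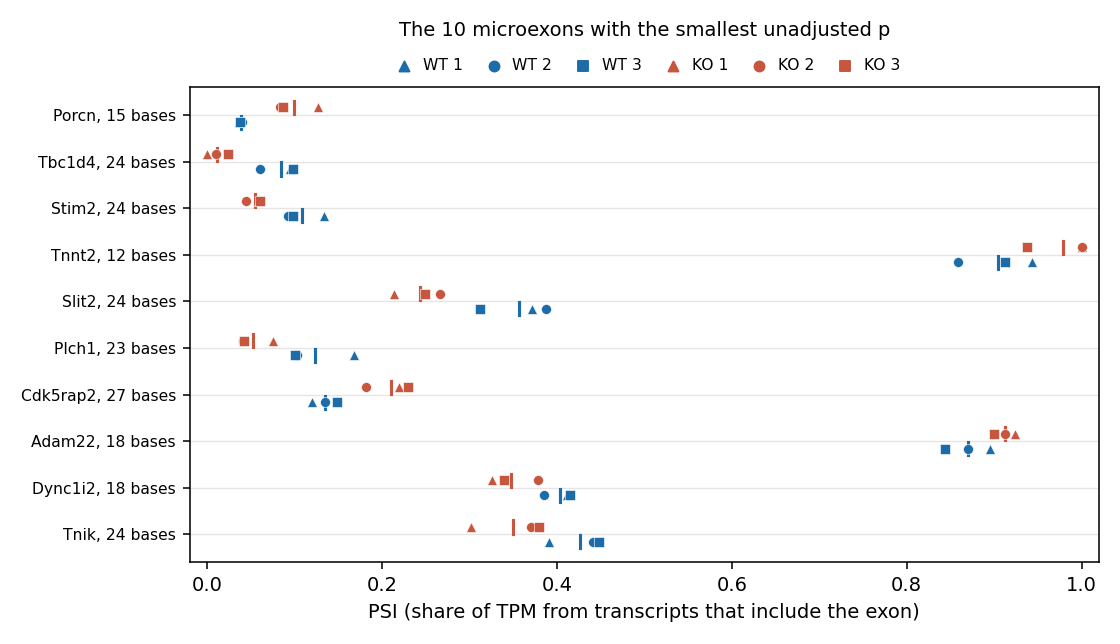
PSI (x axis, 0 to 1) of the 10 microexons with the smallest unadjusted p (y axis, gene and exon length), with 1 point per mouse (blue WT above, red KO below, triangle, circle and square for mice 1, 2 and 3) and a bar at the mean of each genotype. The genotypes are separated in 9 of the 10 exons, which were chosen by p, and all differences are below 0.12 in size.

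The largest differences between genotype means were of another kind. The 5 that fell furthest were in Ppm1b, Arhgef6, Med7, Stx16 and Myo7a, and the 5 that rose furthest in Tet2, Trim68, Relb, Gstt3 and Inpp4a, with sizes from 0.127 to 0.216 and totals of 1.46 to 10.5 TPM. In Stx16, a syntaxin of the trans-Golgi network, the 15-base exon had 0.892 in WT1 but 0.304 and 0.312 in the other WT mice, and 0.43, 0.338 and 0.329 in KO. In Arhgef6, a guanine nucleotide exchange factor, WT1 had a PSI of 1 and the other 5 mice 0.466 to 0.570. The 27-base exon of Ppm1b, a phosphatase, was at 0.000 in WT1 and in KO1 and at 0.436 to 0.874 in the rest. Tet2, which oxidises methylated cytosine, had 0.107, 0.369 and 0.447 in WT and 0.533, 0.609 and 0.429 in KO. Of these 10 exons only that of Gstt3 had no overlap, at 0.000, 0.127 and 0.085 in WT and 0.337, 0.146 and 0.212 in KO, on a mean of 1.46 TPM.

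The labels were checked on Prmt9 itself. Its expression was 11.8, 15.2 and 15 TPM in WT and 3.93, 4.61 and 4.67 TPM in KO, so that every KO mouse lay below every WT mouse, a change of −1.71 ± 0.10 (SE) on the log2 scale (edgeR's quasi-likelihood test, adjusted p = 0.0327, above the limit of 0.01). Of the 368 host genes of tested microexons, 0 were called for expression and 4 had an unadjusted p below 0.05 (1.09%), where 0 of all 20335 genes (0%) were called and 251 (1.23%) had such a p. Host log2 fold changes ran from −0.31 to 0.53. DESeq2 likewise called none of the host genes.

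The factors that place microexons were expressed in every mouse and were not called. Of 12 listed regulators, 0 had an unadjusted p below 0.05. Srrm4, the main activator of neuronal microexons, stood at 11.3, 22 and 23.3 TPM in WT and 19.4, 22 and 23.7 TPM in KO, a change of 0.16 ± 0.13 (SE) on the log2 scale. Srrm3, its paralog, stood at 35.1, 71.6 and 68.4 TPM in WT and 40.5, 65.5 and 66.8 TPM in KO. For both genes WT1 was the lowest of the 6 mice. Ptbp1 had 30.5 to 39.6 TPM in WT and 37.4 to 47.5 TPM in KO, and Rbfox1 91.1 to 200 TPM in WT and 112 to 182 TPM in KO. Of 7 listed genes that recognise the 3' splice site, 1 had an unadjusted p below 0.05. That was Sf3b2, the substrate of PRMT9, at 127, 156 and 160 TPM in WT and 120, 131 and 134 TPM in KO, a change of −0.28 ± 0.09 (SE) on the log2 scale that edgeR did not call. Sf3b4, whose product binds SF3B2, had 38.7, 43.2 and 43.4 TPM in WT and 37.5, 37.3 and 37.6 TPM in KO, without overlap.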

How the data were processed

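Hippocampus RNA of 3 WT and 3 Prmt9 KO mice was measured. The authors deposited, per mouse, kallisto's estimated counts and TPM for 118783 transcripts (version 0.46.0 in the submitters' processing notes, which also name STAR 2.7.1a and GRCm38), and a gene table of TPM, used here only as a check. Estimated counts summed to 194098391 to 249217021 in WT and 222085851 to 286771677 in KO. Of the transcripts, 116710 (98.3%) matched GENCODE M21.

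Cassette events were built from the M21 exons. For an exon with several flanking pairs, the pair with the highest mean TPM led. An event was tested if all mice had 1 TPM for it and the mean PSI of a genotype was from 0.05 to 0.95. The log2 ratio of including to skipping TPM, each plus 0.1, was compared with limma 3.58.1 (trended, R 4.3.3). The limits were an adjusted p of 0.01 and a PSI difference of 0.05, as in the study. The study set them for another test, rMATS-turbo, on reads that support inclusion or skipping, and reported altered splicing events with it. The absence of calls here is therefore not a repeat of the study's test. Rounded gene sums of the estimated counts were compared with edgeR 4.0.16, and with DESeq2 1.42.0 as an alternative. The limma and edgeR fits were tested on simulated data, in which no mice stood apart as WT1 and KO1 do here.

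Microexons, lists and tests were chosen with earlier results of these data known. Named exons were the 20 most expressed from the host lists, the 10 of smallest p, the 5 largest differences each way and the 5 highest and 5 lowest in mean PSI. The authors' methods give 3 biological replicates per genotype. Same-numbered mice deviated together (r = 0.552, 0.417 and 0.378), so a fit with the number as a block was run as an alternative to the main fits, which have none, though WT2 with KO3 (0.409) and WT3 with KO2 (0.396) were as close. Intron sequence was not analysed here, because no genome was used. Some results are not reported here.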

Additional observations from a re-analysis of the deposited data

How the results depend on the processing

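No alternative gave a called microexon or any other called cassette event, and none called a host gene. The lowest adjusted p of a microexon was 0.246, in limma without both mice numbered 1. The count of 7 microexon events that passed an unadjusted p of 0.05 and a PSI difference of 0.05 became 3 at a minimum of 5 TPM, 4 with protein-coding transcripts only, 13 with the replicate block and 21 without both mice numbered 1. Leaving out each mouse in turn gave 5 to 16, with 16 (3.40%, against 4.55% of all events) without WT1 and 11 without WT3. In each of these settings the share stayed below that of all events. Non-overlapping microexon events numbered 144 without WT1 (30.6%, against 30.9% of all events), 72 to 92 without any other mouse and 205 without both mice numbered 1 (43.4%, against 44.0%). The median PSI in WT of 0.5197 became 0.5058 without limits on PSI, 0.4986 with estimated counts, and 0.5088 to 0.5220 without a WT mouse, the lowest without WT3. The cause of these shifts was not tested. The share of events with an exon that is a multiple of 3 was 81.3% over all annotated events and 87.6% over the tested ones. For Prmt9, the log2 fold change was −1.71 with DESeq2 (adjusted p = 1.44e-60) and −1.67 without both mice numbered 1 (edgeR, adjusted p = 0.00118), and then passed the limit of 0.01. The replicate block changed no call.

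Of the 49 named exons, 15 changed the sign of their PSI difference under at least 1 alternative, none of them called. Leaving out a mouse gave −0.0217 to 0.0018 for Dnm1, −0.0330 to 0.0193 and −0.0203 to 0.0351 for the 27-base and 24-base exons of Kif1a, −0.0059 to 0.0121 for Ptprs, −0.0073 to 0.0086 for the 24-base exon of Mapk8ip3, −0.0170 to 0.0069 for Snap91, −0.0267 to 0.0351 and −0.0083 to 0.0078 for the 24-base and 27-base exons of Shank1, −0.0266 to 0.0444 for Kif1b, −0.0185 to 0.0659 for Nfasc, −0.0044 to 0.01 for Git1, −0.0120 to 0.0289 for Mink1, −0.4558 to 0.0179 for Ppm1b, −0.2792 to −0.0121 for Arhgef6 and −0.2366 to 0.0572 for Stx16. Without both mice numbered 1 the differences were −0.0032 for Ptprs, −0.0094 for Git1, 0.0070 for Arhgef6 and 0.0251 for Stx16. Estimated counts gave 0.0002 for the 24-base exon of Mapk8ip3 and 0.0003 for the 27-base exon of Shank1. The fall of the Arhgef6 and Stx16 exons thus rested on WT1.

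Of the 19 regulators, 12 changed the sign of their log2 fold change, none of them called. Leaving out a mouse gave −0.15 to 0.13 for Srrm3, −0.10 to 0.11 for Srsf11, −0.16 to 0.09 for Rnps1, −0.12 to 0.12 for Ptbp2, −0.24 to 0.09 for Rbfox1, −0.07 to 0.10 for Rbfox2, −0.02 to 0.07 for Nova1, −0.27 to 0.16 for Qk, −0.03 to 0.08 for Sf3b1, −0.01 to 0.20 for U2af1, −0.06 to 0.03 for U2af2 and −0.01 to 0.10 for Sf1. Without both mice numbered 1 the values were −0.04 for Srrm3 and Rbfox2, −0.02 for Srsf11 and Sf3b1, −0.01 for Ptbp2 and −0.06 for Nova1. DESeq2 gave −0.0037 for Ptbp2, and no filter on low counts gave 0.0016 for U2af2.

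With 3 mice a genotype the exact test cannot go below 0.1, and PSI from annotated transcripts gives no value for an unannotated microexon or splice site. Where the total was near 1 TPM, as for Gstt3, few reads stood behind a PSI.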
